A study of Mus musculus with 6 samples.

Results

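Array profiles of mouse left ventricle were split into sets chosen by the measured signal of a single *Kdm3a* probe. Of 6 arrays in all, 3 had a raw intensity above 10000 on probe ILMN_3118169 and 3 had one below 1000. The high arrays were those labelled WT TAC replicate 1, *Kdm3a*-Tg (Tg) TAC replicate 1 and Tg TAC replicate 2. The low arrays were those labelled WT Sham, WT TAC replicate 2 and Tg Sham. The mice were C57BL/6 males operated on at 6 to 8 weeks of age, and ventricles were taken 3 weeks later according to the labels, while the study's text gives a longer time for its Tg mice. TAC (trans-aortic constriction) bands the aortic arch and loads the left ventricle with pressure, and sham mice underwent surgery without the band. Tg mice carried a Flag-tagged mouse *Kdm3a* cDNA behind the αMHC promoter, which is active in heart muscle cells, and the study reports mainly on a single transgenic line. The labels name 1 animal per array, numbered 444 (WT Sham), 445 (WT TAC replicate 1), 454 (Tg Sham), 446 (Tg TAC replicate 1), 17 (WT TAC replicate 2) and 18 (Tg TAC replicate 2).

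KDM3A removes methyl groups from lysine 9 of histone H3, a mark of repressed chromatin. A ventricle under pressure load typically re-expresses fetal heart genes, lays down extracellular matrix, recruits leukocytes and turns from fatty acids towards glucose as fuel. *Timp1* encodes an inhibitor of matrix-degrading proteases and is one of the genes the study followed.

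The probe that set the split read 30614 on WT TAC replicate 1, 34642 on Tg TAC replicate 1 and 33540 on Tg TAC replicate 2. It read 341 on WT Sham, 229 on WT TAC replicate 2 and 247 on Tg Sham. The lowest high array thus stood 89.9-fold above the highest low array, with no array between the limits. The library labelled WT TAC replicate 1 was high and the library labelled Tg Sham was low, so 2 libraries went against their genotype label on this probe. ILMN_3043245 spanned 238 to 301 on the high arrays and 243 to 287 on the low arrays. ILMN_2707895 spanned 392 to 728 and 468 to 755, in the same order, and ILMN_2556191 was detected on none. No other *Kdm3a* probe therefore showed the step. Which of them fall inside the transgene's cDNA was not checked here, and a probe outside it cannot read the transgene.

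**Figure D1:**
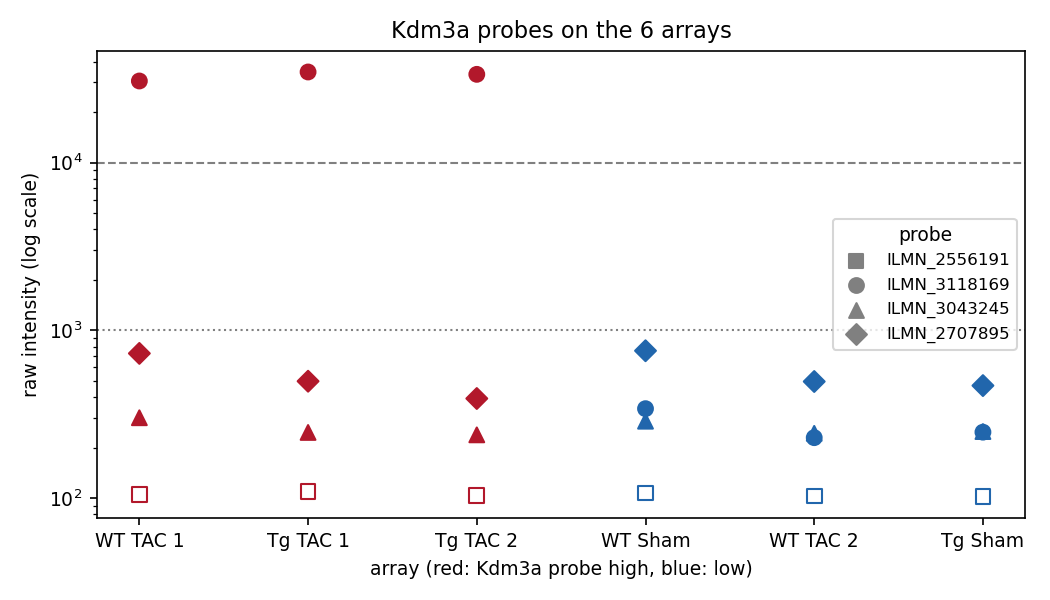
Raw intensity (log axis) of the 4 *Kdm3a* probes on the 6 arrays, high arrays in red and low arrays in blue. Open symbols were not detected, and the lines mark 10000 and 1000. ILMN_3118169 lies at 30614 to 34642 on the high arrays and at 229 to 341 on the low arrays, while the other probes show no step.

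Because a measured value chose the sets, they are not groups of the study. The split is described by the value on each array, with no mean over a set and no test. All 3 high arrays were TAC and 2 of the 3 low arrays were sham, so the probe and the surgery are partly mixed. Among the 4 animals numbered 444 to 454 the split was that of the surgery, and the transgene and the surgery cannot be told apart there by this probe. Animals 17 and 18 both had TAC, and between them the split followed the genotype label. Levels are background-corrected, quantile-normalized log2 intensities, of which 1 unit is a doubling. The gap of a gene is the distance between the nearest arrays of the sets, taken as the lowest high array minus the highest low array for a gene higher on the high arrays, and negative for a gene lower there. A gene whose sets overlap has a gap of 0. In whole tissue, fewer cells of a type and less RNA per cell cannot be told apart.

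*Kdm3a* aside, 9576 genes were measured. All 3 high arrays lay above all 3 low arrays for 847 genes (8.85%) and below them for 705 (7.36%). Most of these gaps were narrow, and a gap of at least 1 log2 unit was reached by 18 genes in the higher direction (0.188%) and by 3 in the lower direction (0.0313%). Signal was detected on all 3 high arrays and no low array for 47 genes (0.491%), and on all 3 low arrays and no high array for 15 genes (0.157%). With median scaling in place of quantile normalization, 1113 genes lay higher and 387 lower, so that 74.2% of the separated genes were higher in place of 54.6%. That scaling shifted typical levels on an array by between -0.15 and 0.22 log2 units relative to quantile normalization. Counts of list members with median scaling are therefore read against 1113 higher and 387 lower of 9576 genes. Without the 2 libraries that went against their label, 2374 genes (24.8%) were higher and 2107 (22%) lower on Tg TAC replicates 1 and 2 than on WT Sham and WT TAC replicate 2. With fewer arrays a side, sets separate more often, so these counts are read only against their own percentages. Leaving out any 1 array likewise raised the counts, to between 1035 and 1782 higher and between 865 and 1524 lower genes, most of all without WT TAC replicate 1.

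Likeness between arrays of a set and across the sets covered overlapping ranges. Pearson's r over genes was 0.963 to 0.980 between high arrays, 0.959 to 0.985 between a high and a low array, and 0.980 to 0.990 between low arrays. WT TAC replicate 1 was closest to WT Sham (r = 0.985), with 162 genes over 2-fold apart, against 713 genes between WT TAC replicate 1 and Tg TAC replicate 2. The first principal component (39.1% of the variance) scored -21.0, 6.09 and 30.4 on WT TAC replicate 1, Tg TAC replicate 1 and Tg TAC replicate 2, and -25.6, 4.97 and 5.23 on WT Sham, WT TAC replicate 2 and Tg Sham, so the sets interleaved. On the second component (34.6%) the scores were 14.6, 30.3 and -0.51 on the high arrays in that order and -11.8, -21.8 and -10.8 on the low arrays. The sets did not overlap there, and Tg TAC replicate 2 was the high array nearest to the low ones.

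**Figure D2:**
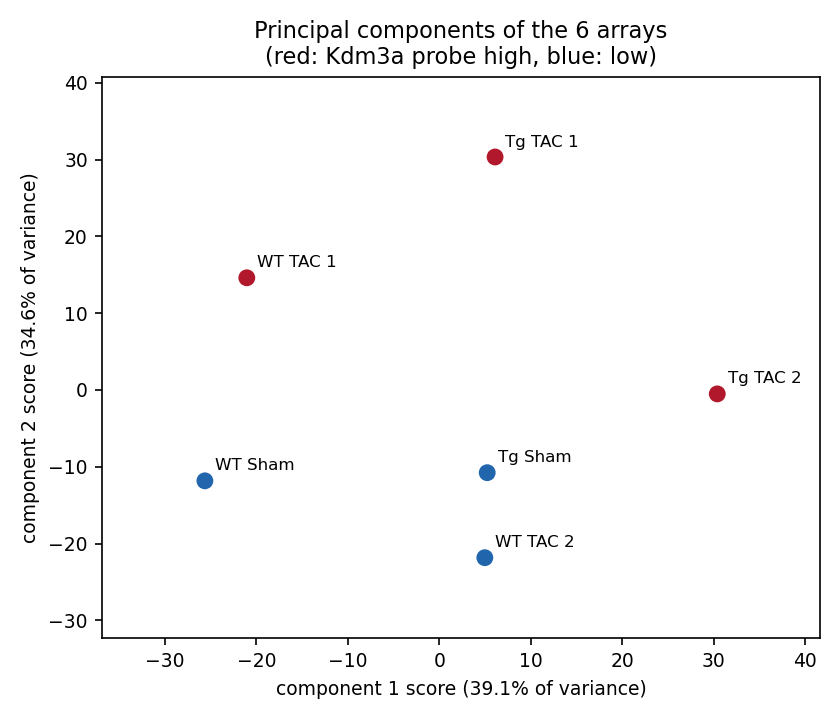
Scores of the 6 arrays on the first 2 principal components of the measured genes without *Kdm3a*, high arrays in red and low arrays in blue. The sets interleave on component 1 (39.1% of variance) and separate on component 2 (34.6%), where Tg TAC replicate 2 at -0.51 is the high array closest to the low arrays.

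The array of each set that lay nearest to the other set was counted. Among the 847 higher genes, the high array nearest to the low set was WT TAC replicate 1 for 434 genes (51.2%), Tg TAC replicate 2 for 279 (32.9%) and Tg TAC replicate 1 for 134 (15.8%). Among the 705 lower genes it was Tg TAC replicate 2 for 304 (43.1%), WT TAC replicate 1 for 300 (42.6%) and Tg TAC replicate 1 for 101 (14.3%). Tg TAC replicate 1 was thus the least often limiting high array in both directions. The low array nearest to the high set was Tg Sham for 361 of the higher genes (42.6%) and for 272 of the lower genes (38.6%).

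Promoters are shown for 3 genes the description turns on, *Slc1a2* with the widest gap, *Tecr* as the lower gene on which 3 probes stepped alike, and *Timp1* as the study's gene. The windows are RefSeq's, on GRCm38.p6, and run from 250 bases before to 50 after the annotated start. Capitals mark each CG, the dinucleotide at which mammalian DNA is methylated.
Slc1a2, chr2:102706188-102706487, plus strand: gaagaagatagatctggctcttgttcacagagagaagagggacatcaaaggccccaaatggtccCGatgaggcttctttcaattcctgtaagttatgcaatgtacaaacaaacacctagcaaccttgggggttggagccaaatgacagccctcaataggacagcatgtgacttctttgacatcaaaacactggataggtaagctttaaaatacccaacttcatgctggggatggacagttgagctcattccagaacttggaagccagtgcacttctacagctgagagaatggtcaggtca
Timp1, chrX:20869916-20870215, plus strand: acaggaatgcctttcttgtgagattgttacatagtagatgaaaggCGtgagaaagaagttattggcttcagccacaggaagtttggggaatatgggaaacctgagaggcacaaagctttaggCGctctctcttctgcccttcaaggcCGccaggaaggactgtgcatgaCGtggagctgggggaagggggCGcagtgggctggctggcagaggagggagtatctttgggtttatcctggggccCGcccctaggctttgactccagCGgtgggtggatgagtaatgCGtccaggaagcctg
Tecr, chr8:83594442-83594741, minus strand: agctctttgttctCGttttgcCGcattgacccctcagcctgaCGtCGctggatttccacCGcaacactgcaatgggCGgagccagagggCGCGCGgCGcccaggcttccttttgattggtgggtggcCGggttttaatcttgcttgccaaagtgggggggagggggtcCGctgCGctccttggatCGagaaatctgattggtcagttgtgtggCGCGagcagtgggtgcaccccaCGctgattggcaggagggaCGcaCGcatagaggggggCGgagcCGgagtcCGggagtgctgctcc
The *Slc1a2* window held 1 CG, that of *Timp1* 8 and that of *Tecr* 22. A RefSeq promoter was given for 11 of the 15 named higher genes and 9 of the 15 named lower genes described next, whose median CG counts were 15 and 14. The medians were 20 over 688 of the 847 higher genes, 19 over 581 of the 705 lower genes and 21 over 7773 measured genes with a promoter. The letters TGANTCA, the site of AP-1 factors, occurred on either strand in 2 of the 11 higher genes (*Cideb* and *Fgl2*), in 2 of the 9 lower genes (*Acsl6* and *Dnaaf3*) and in 6.07% of the measured genes. They occurred in 6.69% of all higher and 7.57% of all lower genes with a promoter. Such a match is a description of letters, not of a site in use.

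The gene with the widest gap was *Slc1a2*, the main glutamate transporter of glial cells. Its level was 7.95 on WT TAC replicate 1, 8.19 on Tg TAC replicate 1 and 8.73 on Tg TAC replicate 2, against 4.62 on WT Sham, 4.85 on WT TAC replicate 2 and 5.22 on Tg Sham. It was detected on no low array, so the lowest high array stood at least 5.73-fold above the highest detection limit of the low arrays. A second probe, ILMN_3123195, stepped in the same way with a gap of 2.39. The gap of 2.74 was 1.40 in the authors' table, where background is not removed. *Slc1a2* lies on chromosome 2, and the marker genes of nerve and glial cells did not step with it, with 0 of 4 measured members separated in either direction.

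*Tmprss13*, a membrane-bound serine protease, read 8.23, 8.24 and 9.33 on the high arrays, always given in the order WT TAC replicate 1, Tg TAC replicate 1, Tg TAC replicate 2. It read 5.67, 6.35 and 5.16 on the low arrays, always given in the order WT Sham, WT TAC replicate 2, Tg Sham. The gap was 1.88, and 1.66 on its second probe. *Septin6*, a GTP-binding protein of the cytoskeleton encoded on the X chromosome, read 8.43, 8.63 and 8.74 on the high arrays and 6.14, 5.90 and 6.66 on the low arrays. Within each set its values spanned less than 1 unit while the gap was 1.77, and 1.45 on a second probe. *Cideb*, a lipid droplet protein best known from liver, read 8.25, 8.50 and 8.82 on the high arrays and 6.65, 6.60 and 6.70 on the low arrays, a gap of 1.56.

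*Fgl2*, which can activate prothrombin and is made by immune and endothelial cells, read 8.74, 8.99 and 8.50 on the high arrays and 7.06, 6.94 and 6.48 on the low arrays. *Ifi27*, an interferon-inducible gene, read 12.1, 12.4 and 12.5 on the high arrays and 11.0 on each low array, with a gap of 1.10 and of 1.00 on a second probe. The remaining interferon and antigen presentation genes did not step with *Ifi27*. Of 20 measured members it was the only higher one (5%, against 8.85% of all genes). *Cd74*, *H2-Aa*, *H2-Ab1* and *Ifi35* were lower (20% of the list, against 7.36% of all genes) with gaps of -0.13, -0.02, -0.02 and -0.01. With median scaling the list had 2 higher and 1 lower members, against 1113 and 387 of all 9576 genes. *Myl4*, the light chain of atrial and fetal myosin, read 8.41, 9.05 and 8.71 on the high arrays and 7.10, 6.75 and 7.38 on the low arrays, a gap of 1.03.

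*Pdk3*, a kinase that switches off pyruvate dehydrogenase, had a gap of 1.38 and *Efhd1*, a mitochondrial calcium-binding protein, one of 1.23. The sodium-proton exchanger *Slc9a3* was detected on the high arrays alone, at 6.46, 8.01 and 6.85, which is at least 2.04-fold above the detection limit. The same held for *Fam205c* (at least 1.53-fold), the orphan receptor *Gpr158* (at least 1.26-fold) and *Ccdc184* (at least 1.23-fold). *Cuzd1*, known from secretory granules of the pancreas, and *Ttr*, the carrier of thyroxine, had gaps of 1.11 and 1.01. Without WT TAC replicate 1 the gaps of *Fam205c* and *Gpr158* were 3.05 and 1.67, and that of *Ttr* was 1.52 without Tg TAC replicate 1 and 1.70 without WT Sham. These 15 higher genes lie on 13 chromosomes, with *Slc1a2* and *Gpr158* on chromosome 2 and *Septin6* and *Pdk3* on the X chromosome. Outside the naming rule, the clone *3110040M04Rik* read 10.4, 12.4 and 11.9 on the high arrays and 7.58, 6.75 and 8.44 on the low arrays, a gap of 1.99 and the second widest of all. It and *Gm9961* (gap 1.12) were named after their values were seen.

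**Figure D3:**
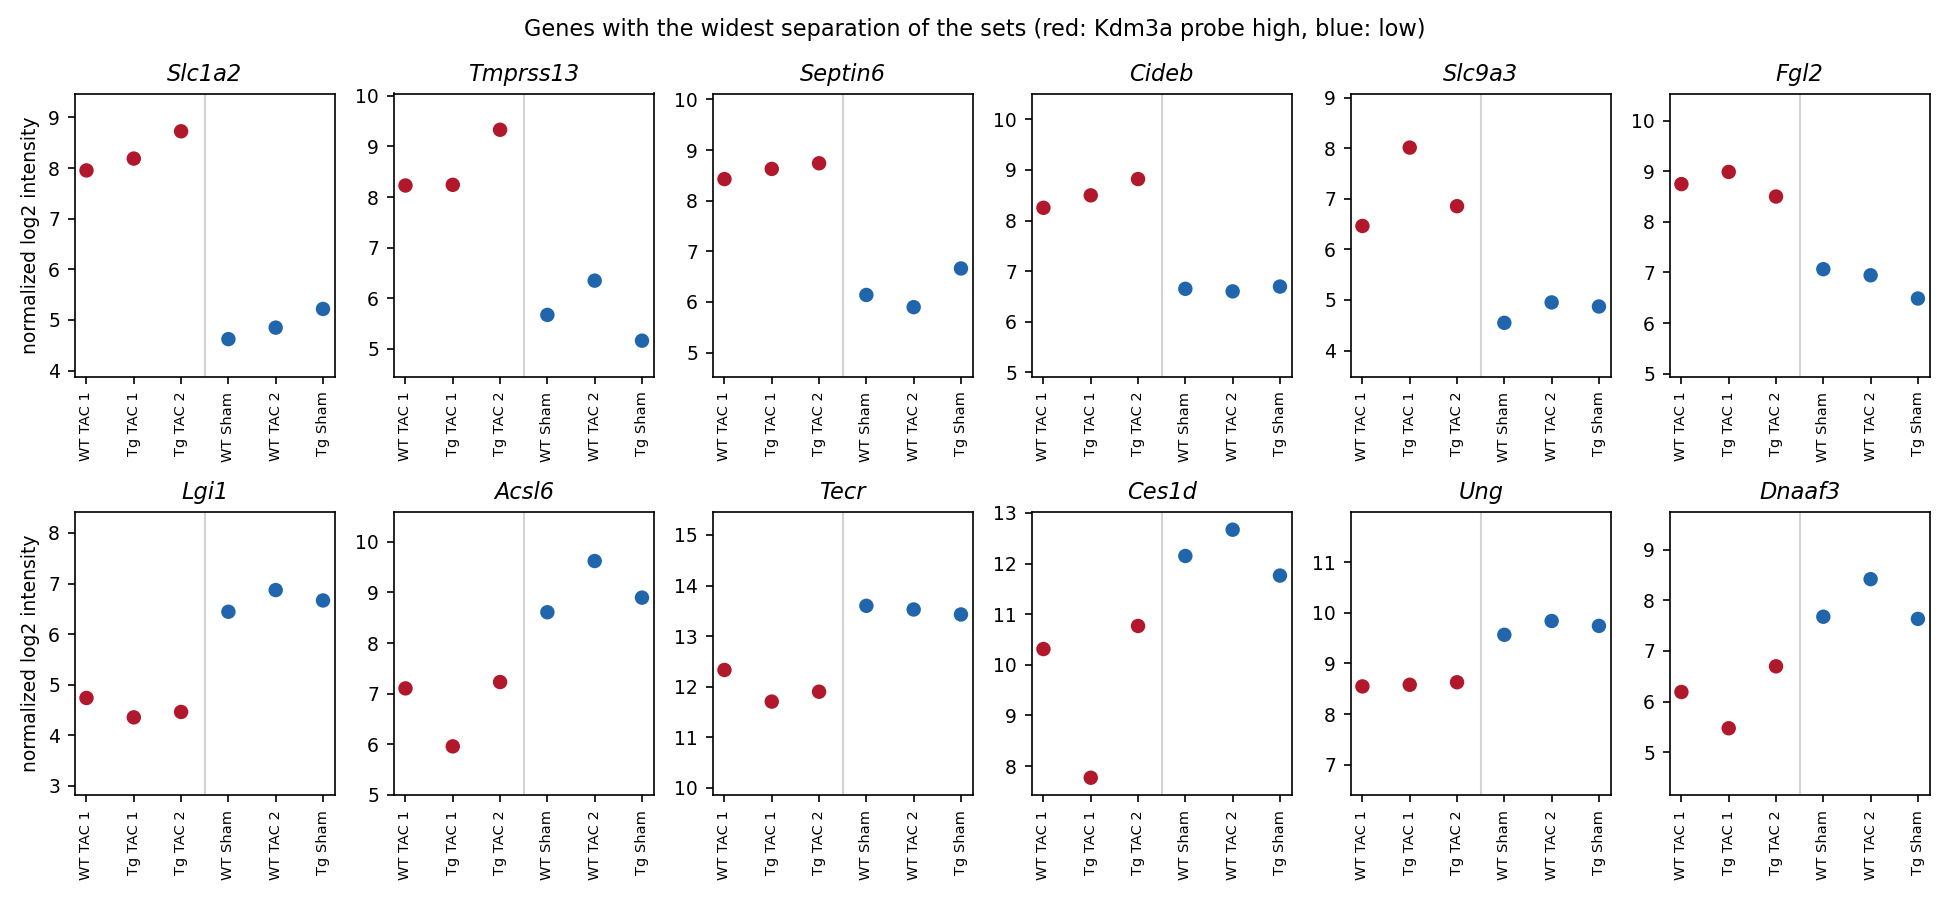
Normalized log2 intensity of the 6 genes with the widest gaps in each direction on each array, high arrays in red and low arrays in blue, with the same span on every vertical axis. The top row (higher genes) runs from a gap of 2.74 for *Slc1a2* to 1.44 for *Fgl2* and the bottom row (lower genes) from -1.70 for *Lgi1* to -0.94 for *Dnaaf3*.

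*Lgi1*, a secreted protein known from synapses, had the widest gap among the lower genes. It was not detected on any high array (4.74, 4.36 and 4.46) and was detected on every low array (6.44, 6.87 and 6.66), at least 2.04-fold above the highest detection limit of the high arrays. Its second probe had a gap of -1.08. *Acsl6*, which links long-chain fatty acids to coenzyme A, read 7.10, 5.96 and 7.23 on the high arrays and 8.61, 9.62 and 8.90 on the low arrays. *Tecr*, the reductase that completes each cycle of very-long-chain fatty acid elongation, read 12.3, 11.7 and 11.9 on the high arrays and 13.6, 13.5 and 13.4 on the low arrays. Its 3 probes had gaps of -1.10, -1.12 and -1.22.

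The other lower genes had narrower gaps. *Ces1d*, a carboxylesterase that hydrolyses stored triglyceride, read 10.3, 7.77 and 10.8 on the high arrays and 12.2, 12.7 and 11.8 on the low arrays, and Tg TAC replicate 1 stood far below the other high arrays. *Dgat2*, which makes triglyceride, read 12.4, 11.7 and 12.4 on the high arrays and 13.2, 13.3 and 13.1 on the low arrays. *Gpcpd1*, which cleaves glycerophosphocholine, had a gap of -0.88, and -1.08 on a second probe. *C1qtnf12*, the secreted factor adipolin, had a gap of -0.93. *Ung*, which removes uracil from DNA, read 8.55, 8.58 and 8.63 on the high arrays and 9.57, 9.84 and 9.74 on the low arrays, but its dimmer second probe had a gap of -0.09. *Ciart*, a repressor of the circadian clock, had a gap of -0.74, and -0.12 and -0.88 on its other probes. *Dnaaf3*, *Olfr1189*, *Dnase2a*, *Rhbdl3*, *Pdzd3* and *Krt222* completed the 15, with gaps between -0.94 and -0.75. *Olfr1189* was detected on no high array, and its low arrays stood only at least 1.10-fold above the detection limit. Of the other *Dnase2a* probes, ILMN_2975892 overlapped and ILMN_2435392 had a gap of -0.47. Without WT TAC replicate 1 the gaps of *Dnase2a*, *Rhbdl3* and *Krt222* were -1.53, -1.72 and -1.42. Without Tg TAC replicate 2 that of *Dnaaf3* was -1.44, and without WT TAC replicate 2 those of *Gpcpd1* and *Pdzd3* were -1.37 and -1.16. Olfactory receptors such as *Olfr1189* and carboxylesterases such as *Ces1d* have close relatives, and which copies their probes read was not checked.

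Genes of fatty acid uptake and oxidation supply the heart's main fuel. Of 29 measured members of 33 listed, 9 (31.0%) were separated downwards and 0 upwards, against 7.36% and 8.85% of all genes. Apart from *Acsl6* and *Ces1d* the gaps were small, at -0.16 for *Hadh*, -0.15 for *Acadvl*, -0.12 for *Eci1*, -0.09 for *Etfdh*, -0.07 for *Lpl*, -0.05 for *Acadm* and -0.01 for *Acot2*. *Hadh* and *Acadvl*, enzymes of beta-oxidation, show the pattern. *Hadh* read 6.80, 6.84 and 7.39 on the high arrays and 7.55, 7.82 and 7.93 on the low arrays. *Acadvl* read 12.8, 12.9 and 13.1 on the high arrays and 13.3, 13.4 and 13.3 on the low arrays. *Cpt1b*, the muscle carnitine palmitoyltransferase, overlapped at 12.1, 12.6 and 13.0 on the high arrays and 12.2, 12.8 and 12.9 on the low arrays. Without the 2 libraries against their label 12 members (against 22% of all genes) were lower and 0 higher. With median scaling 9 were again lower and 0 higher, against 387 and 1113 of all 9576 genes. Without Tg TAC replicate 2 there were 17 lower members, against 15.3% of all genes.

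Fuel genes beyond fatty acids gave smaller counts. Of 18 measured genes of glucose transport and glycolysis, *Pfkp* (gap 0.48), *Hk1* (0.29) and *Slc2a1* (0.01) were higher, a share of 16.7% against 8.85% of all genes. *Pdk2* was lower (-0.31), a share of 5.56% against 7.36% of all genes. *Hk1*, a hexokinase, read 8.88, 8.91 and 9.01 on the high arrays and 8.49, 8.59 and 8.48 on the low arrays. Of 26 oxidative phosphorylation genes 0 were higher and 3 were lower (11.5%, against 7.36% of all genes), namely *Ndufs3*, *Cox7a1* and *Sdhb*, each with a gap of 0.05 units or less in size. With median scaling the lower oxidative phosphorylation genes numbered 1, against 387 of all 9576 genes. Among 12 potassium channel and conduction genes 1 was lower (8.33%, close to the 7.36% of all genes), *Kcnip2*, a subunit of the transient outward current channel, at 7.72, 7.11 and 7.58 on the high arrays and 8.76, 7.90 and 8.31 on the low arrays.

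The fetal and hypertrophy genes split unevenly. Of 14 measured members 4 (28.6%, against 8.85% of all genes) were higher and 0 were lower, against 7.36%. The higher ones were *Myl4*, *Mybphl* (0.71), *Acta2* (0.38) and *Fhl1* (0.27). *Mybphl* was detected on no low array and stood at least 1.08-fold above the limit. *Fhl1*, a sarcomeric LIM protein, read 12.6, 13.1 and 12.0 on the high arrays and 11.5, 11.3 and 11.7 on the low arrays. The natriuretic peptide gene *Nppa* overlapped, at 15.2, 15.3 and 12.5 on the high arrays and 14.2, 13.1 and 14.7 on the low arrays. *Nppb* read 14.1, 14.7 and 12.2 on the high arrays and 13.8, 12.8 and 13.9 on the low arrays, and *Myh7*, the slow myosin heavy chain, 8.35, 10.6 and 7.01 on the high arrays and 8.44, 6.97 and 8.97 on the low arrays. For all 3 genes Tg TAC replicate 2 was the lowest high array and WT TAC replicate 2 the lowest low array, the animals numbered 18 and 17. Without Tg TAC replicate 2, 10 members of the list were higher, against 17.5% of all genes. Of 18 adult sarcomere and calcium handling genes 1 was lower (5.56%, against 7.36% of all genes), *Pln*, with a gap under 0.01 in size, and 0 were lower with median scaling.

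*Timp1* was separated by a gap of 0.72, and 0.87 on its second probe. It read 9.46, 10.2 and 7.94 on the high arrays and 7.10, 6.42 and 7.22 on the low arrays, with Tg TAC replicate 2 well below the other high arrays. Other matrix processing genes above the low arrays were *Pcolce*, which promotes procollagen cleavage (0.24), the protease *Adam9* (0.14), *Plod3* (0.03) and *Serpinh1* (0.02). Together with *Timp1* they made 5 of 22 measured members (22.7%, against 8.85% of all genes), and 0 were lower. That count was 2 with median scaling, against 1113 of all 9576 genes. It was 3 with the mean of each gene's probes, against 792 genes in all, and 10 without Tg TAC replicate 2, against 17.5% of all genes. The matrix proteins themselves were rarely separated, with *Col1a2* (gap 0.20) the only one of 29 measured genes (3.45%, against 8.85% of all genes) and 0 lower. *Col1a2* read 7.76, 8.39 and 7.25 on the high arrays and 6.61, 6.56 and 7.05 on the low arrays. *Col3a1* overlapped at 9.59, 9.55 and 8.31 on the high arrays and 7.99, 7.94 and 8.31 on the low arrays, and *Col1a1* at 10.5, 10.3 and 8.51 on the high arrays and 9.56, 8.87 and 9.06 on the low arrays. Leaving out Tg TAC replicate 2 brought the higher matrix genes to 23, against 17.5% of all genes, and leaving out each of the other arrays gave 1 to 4. In the TGF-beta pathway 2 of 15 genes (13.3%, against 8.85% of all genes) were higher, the ligands *Tgfb3* (0.49) and *Tgfb2* (0.02). For *Tgfb1*, whose protein the study reports raised in Tg TAC hearts, RNA by label went the other way. Its log2 difference was -0.66 for Tg TAC against WT TAC and -0.30 for TAC against sham. Neither was called by limma at an adjusted p under 0.05.

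Of 12 measured genes that the study names, 5 (41.7%, against 8.85% of all genes) were higher (*Timp1*, *Tgfb3*, *Fhl1*, *Col1a2* and *Adam9*) and 0 were lower. These arrays belong to the study's own data, and how it chose each gene was not checked. The count is therefore not taken as independent evidence of a direction. It was 9 without Tg TAC replicate 2, against 17.5% of all genes. Of 9 measured enzymes that write or erase methylation of histone H3 lysine 9, *Kdm3a* left out, 1 was higher (11.1%, against 8.85% of all genes). It was the methyltransferase *Ehmt2*, at 8.72, 8.73 and 8.60 on the high arrays and 8.41, 8.52 and 8.48 on the low arrays. With median scaling 0 were higher.

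Markers of cell types were read for each set. Of 18 macrophage and leukocyte markers 6 (33.3%, against 8.85% of all genes) were higher and 0 lower. With median scaling 3 were higher, against 1113 of all 9576 genes. The 6 without that scaling were *Laptm5* (0.35), the Fc receptor *Fcgr3* (0.34), the complement subunit *C1qb* (0.10), *Cd163* (0.08), *Adgre1* (0.06) and *Lyz1* (0.02). *Laptm5*, a lysosomal protein of leukocytes, read 11.2, 11.4 and 11.0 on the high arrays and 10.5, 10.6 and 10.7 on the low arrays. The summed linear signal of the list spanned 17467 to 23586 on the high arrays and 15192 to 17844 on the low arrays, so the sets touched. Without Tg TAC replicate 2, 15 of these markers were higher, against 17.5% of all genes. Of 7 complement and acute phase genes 4 (57.1%, against 8.85% of all genes) were higher, *Serpina3n* (0.76), *C2* (0.19), *Cd55* (0.16) and *Serping1* (0.13). With median scaling 3 were higher and 1 lower, against 1113 and 387 of all 9576 genes. *Serpina3n*, a secreted protease inhibitor of the acute phase, read 8.09, 9.88 and 9.33 on the high arrays and 7.28, 7.33 and 7.01 on the low arrays.

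Of 14 fibroblast markers *Pi16* (0.50) and *S100a4* (0.21) were higher and *Dpep1* (-0.03) lower. These shares of 14.3% and 7.14% stand beside 8.85% and 7.36% of all genes. The list summed to 6150 to 11617 on the high arrays and 6704 to 8499 on the low arrays. Cardiomyocyte markers, by which the labelled tissue was checked, summed to 207573 to 222540 on the high arrays and 198441 to 221829 on the low arrays. Of 9 measured members 1 was lower (11.1%, against 7.36% of all genes). Mesothelial markers were dim. Of 4 measured members 3 (75%, against 8.85% of all genes) were higher, *Msln* (0.64), *Upk1b* (0.34) and *Krt8* (0.08). With median scaling 2 were higher, against 1113 of all 9576 genes. The mesothelial list summed to 289 to 350 on the high arrays and 93 to 279 on the low arrays. Endothelial markers had 1 higher member among 15 measured (6.67%, against 8.85% of all genes). Erythroid markers had 1 lower among 6 (16.7%, against 7.36% of all genes). The list for smooth muscle and pericytes had 2 lower among 11 (18.2%, against 7.36%). The skeletal muscle list of 5 had 1 in each direction (20% each, against 8.85% higher and 7.36% lower). Each of these shares rests on 1 or 2 genes, so none is read as a shift. Neutrophil, lymphocyte and glial markers had 0 separated. No adipocyte marker was measured. The part of these cell types in the gene lists above was not tested.

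**Figure D4:**
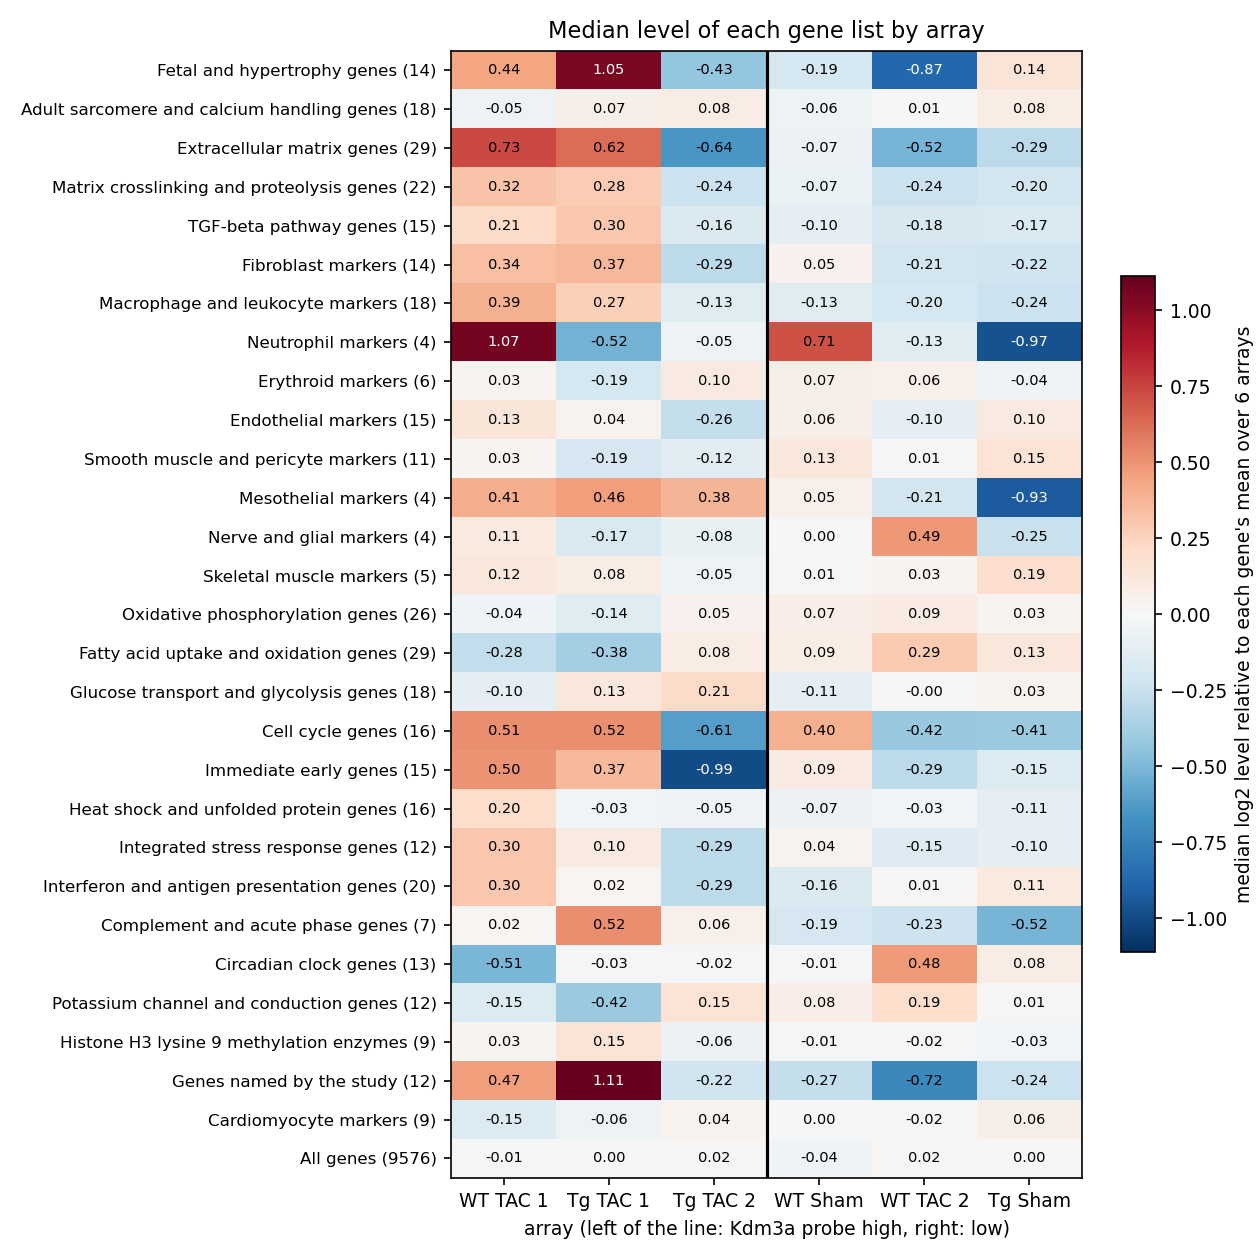
Median log2 level of each gene list on each array, relative to each gene's mean over the 6 arrays, with the number of measured members in brackets. Lists with fewer than 4 measured members are left out. Matrix, fetal and macrophage lists are raised on WT TAC replicate 1 and Tg TAC replicate 1 and not on Tg TAC replicate 2, whose matrix median is -0.64, while the fatty acid list is lowest on WT TAC replicate 1 (-0.28) and Tg TAC replicate 1 (-0.38).

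The high arrays were not alike in these lists. The median matrix gene, relative to its mean over the 6 arrays, stood at 0.73 on WT TAC replicate 1 and 0.62 on Tg TAC replicate 1 but at -0.64 on Tg TAC replicate 2, and at -0.07, -0.52 and -0.29 on WT Sham, WT TAC replicate 2 and Tg Sham. The lowest matrix level of all was therefore on a high array. Fetal and hypertrophy genes had medians of 0.44, 1.05 and -0.43 on the high arrays and -0.19, -0.87 and 0.14 on the low arrays. Immediate early genes, the first transcribed after a stimulus, had medians of 0.50, 0.37 and -0.99 on the high arrays and 0.09, -0.29 and -0.15 on the low arrays. Fatty acid genes had medians of -0.28, -0.38 and 0.08 on the high arrays and 0.09, 0.29 and 0.13 on the low arrays.

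The split was then taken apart into 3 pairs of a high and a low array that share no array and each fall within a run of animal numbers, a choice made after the values were seen. In the pairs WT TAC replicate 1 with WT Sham and Tg TAC replicate 1 with Tg Sham, surgery differed and the genotype label did not. In the pair Tg TAC replicate 2 with WT TAC replicate 2, the genotype label differed and surgery did not. Over all genes, the high array of the pair was above the low one for 54.8%, 50.5% and 50.2% of genes in that order of pairs. The median matrix gene differed by 0.77 and 1.02 log2 units in the surgery pairs and by -0.12 in the genotype pair. In that genotype pair 12 of 29 matrix genes were higher on Tg TAC replicate 2, against 27 and 28 on the high arrays of the surgery pairs.

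Macrophage markers differed by medians of 0.57 and 0.50 in the surgery pairs and -0.02 in the genotype pair, and cell cycle genes by 0.16 and 1.01 and by -0.11. Fetal and hypertrophy genes differed by 0.64 and 0.77 and by 0.05, which became -0.05 with median scaling. The fatty acid list was lower in all 3 pairs, with medians of -0.36, -0.39 and -0.23, and 6, 1 and 8 of 29 members higher on the high array. Median scaling kept those signs at -0.29, -0.34 and -0.34, while the median of all genes then stood at 0.11, 0.15 and -0.08 in the pairs. The median of complement and acute phase genes was above 0 in all 3 pairs, at 0.17, 0.84 and 0.39, with 5, 6 and 5 of 7 members higher. All 4 measured mesothelial genes were higher in every pair, with medians of 0.34, 1.42 and 0.61. A member that the split separated has the sign of its gap in every pair. That held for 4 of the 7 complement and 3 of the 4 mesothelial genes. The sign of these 2 medians was thus fixed by the split, and only their sizes are a description. The 9 separated fatty acid members were lower in every pair for the same reason. Within the animals numbered 444 to 454 alone, 23 matrix, 15 macrophage and 10 fetal genes were higher on both high arrays than on both low arrays, and 17 fatty acid genes were lower. There, 2117 genes in all (22.1%) were higher and 1726 (18%) lower, and the split cannot be told apart from surgery.

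**Figure D5:**
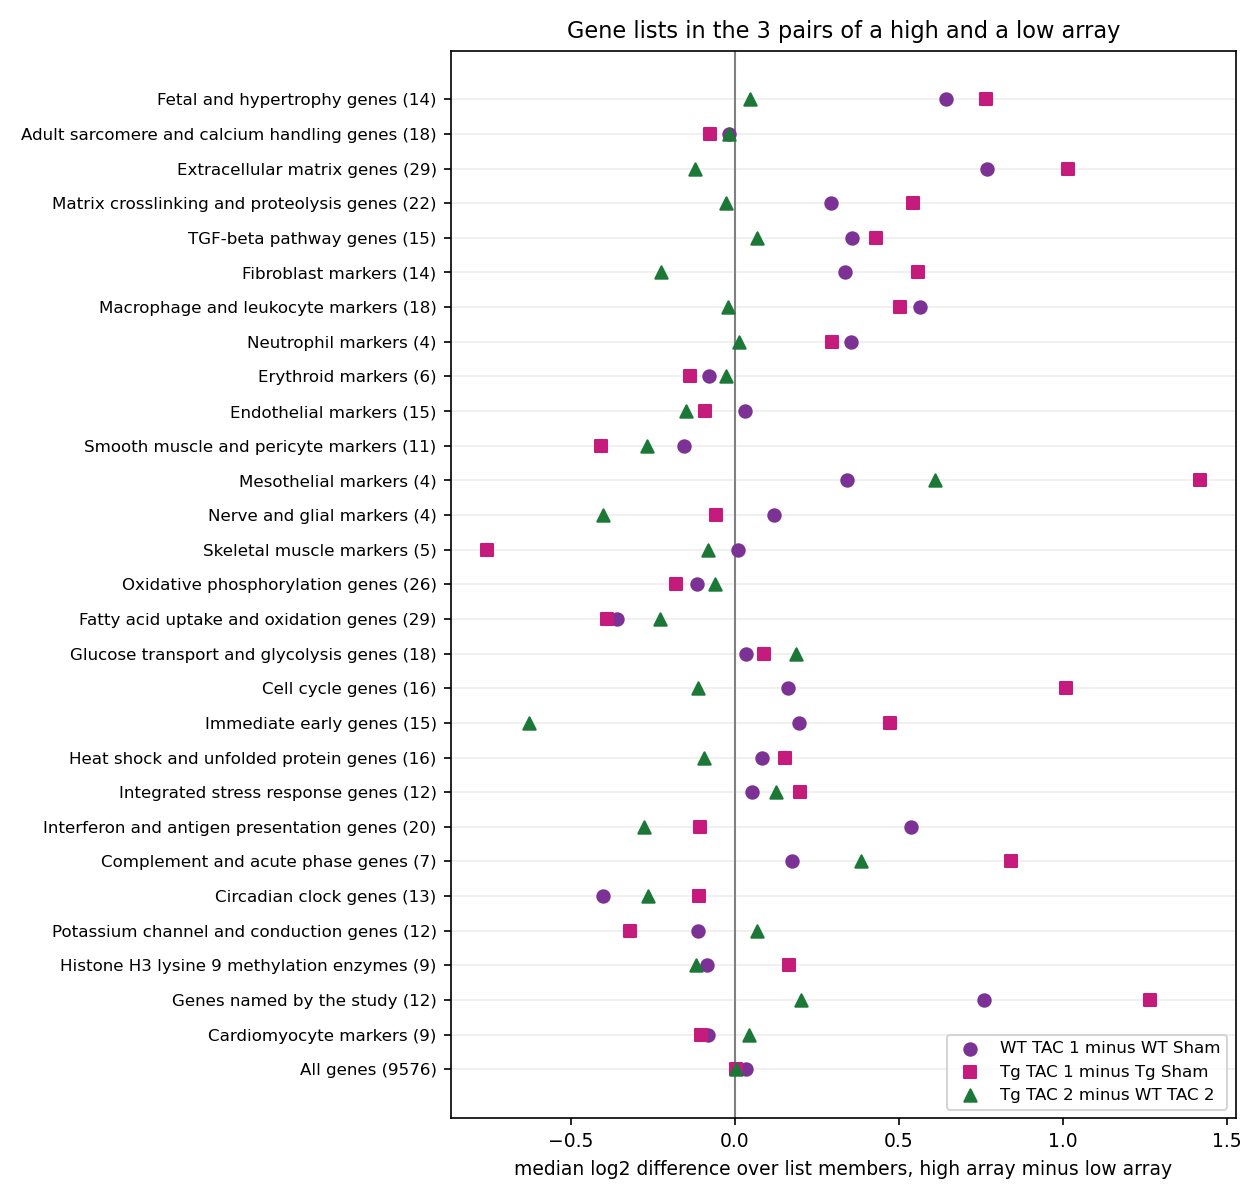
Median log2 difference of each gene list, high array minus low array, in 3 pairs that share no array, with the number of measured members in brackets. Matrix genes lie at 0.77 and 1.02 in the surgery pairs and at -0.12 in the pair of Tg TAC replicate 2 with WT TAC replicate 2. Fatty acid genes lie below 0 and mesothelial genes above 0 in all 3. Members separated by the split have the sign of their gap in every pair, which fixed the mesothelial sign.

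The genes of the widest gaps differed in the genotype pair as well as in the surgery pairs. *Slc1a2* was 3.33, 2.97 and 3.88 higher in the pairs in the order above, *Tmprss13* 2.56, 3.08 and 2.98, and *Septin6* 2.29, 1.97 and 2.84. The clone *3110040M04Rik* was 2.85, 3.94 and 5.12 higher. *Timp1* was 2.37, 2.95 and 1.52 higher and *Serpina3n* 0.81, 2.87 and 2.00. Among the lower genes the differences were -1.70, -2.31 and -2.41 for *Lgi1*, -1.27, -1.72 and -1.62 for *Tecr*, and -1.84, -3.99 and -1.90 for *Ces1d*. That each of these differences has the sign of the gap follows from the rule that picked the genes, and their sizes are the description.

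The tests compared the groups that the labels give, which share all their arrays with the split. For TAC against sham, with genotype as an additive term, limma called 0 of 9577 genes (0%) at an adjusted p under 0.05, and 559 had an unadjusted p under 0.05, 323 of them higher and 236 lower with TAC. For Tg TAC against WT TAC it called 0 of 9577 genes (0%), with 697 at an unadjusted p under 0.05. The smallest adjusted p-values were 0.82 and 0.665. For *Slc1a2* the log2 difference was 2.51 ± 0.81 (SE) for TAC against sham and 2.06 ± 0.98 for Tg TAC against WT TAC, with adjusted p-values from limma of 0.82 and 0.695. For *Timp1* the TAC difference was 1.34 ± 0.92 (adjusted p = 0.837), and for *Tecr* it was -1.15 ± 0.35 (adjusted p = 0.82). Each sham group holds 1 array and these fits leave 3 and 2 residual degrees of freedom, so a difference that misses the threshold is not shown to be absent.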

How the data were processed

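Total RNA of 6 left ventricles was amplified with biotin label and read on Illumina bead arrays, 1 per animal. The authors deposited probe intensity without normalization, summarised with GenomeStudio 2011.1 per the submitters' processing notes, and a detection p-value per probe, deposited in steps of 1 in 936. A second deposited table held linear intensity that the authors had quantile normalized, with no background subtraction found, and served as an alternative.

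Analysis used limma 3.58.1 in R 4.3.3. Normexp correction took the background from the detection p-values and added an offset of 16, before log2 transformation and quantile normalization. Probes with a detection p-value under 0.01 on at least 2 arrays were kept (17014 of 45281), and a gene took its brightest probe. Gene symbols came from the platform annotation, checked against RefSeq of GRCm38.p6, and 2394 of the probes kept had no single symbol. Detected probes numbered 15643 to 16492 per array, and precision is limited by how few arrays there are. For a gene without detection in a whole set there is only a bound, the nearest array of the other set over the highest of the lowest detected signals in that set.

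The sets came from a measured value, so they were described and not tested. TAC against sham and Tg TAC against WT TAC, by label, were tested 2-sided with limma (lmFit, then eBayes with trend) with Benjamini-Hochberg adjustment over 9577 genes and a threshold of 0.05. The fits were tested on simulated data. Gene lists held textbook members of pathways and cell types. Named were the 15 genes of the widest gap in each direction that were detected on all 3 arrays of the brighter set, without *Kdm3a*, predicted genes and clones, up to 4 separated and 3 overlapping members of each list, and genes the study names. The members, lists and rules were chosen with earlier results of these data known. Alternatives were another offset, the authors' table, median scaling, other filters on dim probes, the mean of probes, each array left out, a replicate block, no trend and the methods' t-test. Leaving out both libraries against their label for the split, the runs of animal numbers and the pairs of arrays were added after seeing the data.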

Additional observations from a re-analysis of the deposited data

Results flagged for a closer look

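Among probes without a single gene symbol, which no comparison used, 5 of 2394 (0.209%) were detected on all 4 TAC arrays and on neither sham array. All 5 were dim. The brightest, ILMN_2835423, read 6.36, 5.75 and 6.32 on the high arrays WT TAC replicate 1, Tg TAC replicate 1 and Tg TAC replicate 2, and 5.81 on the low TAC array WT TAC replicate 2, against 5.26 on WT Sham and 4.66 on Tg Sham. For ILMN_2476303 the gap between the *Kdm3a* probe sets was 0.06 and for ILMN_2419998 it was 0.02, while the sets overlapped for the other 3.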

How the results depend on the processing

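All 166 gaps of the 30 named genes under the 6 changes of background, scaling, filter or probe choice that gave one kept their direction. The filters reuse the same normalized values, and so does the mean of probes for a gene with 1 probe. Those gaps could not change, so the count of 166 is no measure of stability. Changes of background and scaling altered the sizes. In the authors' table, where background is not removed, 22 of the 30 gaps were smaller by over 1.5 times, that of *Slc1a2* at 1.40, *Slc9a3* at 0.56 and *Lgi1* at -0.61. The number of genes higher by at least 1 log2 unit (18) was 8 with an offset of 50, 7 in the authors' table and 10 among genes detected on all 6 arrays, and the number lower (3) was 1 in the authors' table. The 847 higher and 705 lower of 9576 genes became 1353 and 1176 with no filter. More genes are then counted, so that rise is not read as a change in separation. With median scaling the lower genes numbered 387. Without both libraries against their label, 2374 genes (24.8%) were higher and 2107 (22%) lower, with 56 and 27 by at least 1 unit. The 3 high arrays against the low TAC array alone gave 2158 and 2372 of 9576 genes, with 46 and 21. Animals 444 to 454 alone gave 2117 (22.1%) and 1726 (18%), with 46 and 15. Animals 18 and 17 gave 148 and 105 of 9576 genes by at least 1 unit. Sets with fewer arrays separate more often. Leaving out each array in turn gave 1035 to 1782 higher and 865 to 1524 lower genes, with 19 to 45 and 4 to 14 by at least 1 unit.

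With a TAC array left out, TAC against sham called 0 to 4 genes, 4 of them without WT TAC replicate 2. Without both libraries against their label, Tg TAC against WT TAC rests on 1 WT TAC array, so only sizes are given. The log2 difference there was 7.89 for *Kdm3a* itself and 5.37 for *3110040M04Rik*. That set of arrays was picked by the *Kdm3a* probe, so the *Kdm3a* difference follows from the choice. The TAC difference of *Timp1* ranged from -0.67 to 2.66 over the alternatives. The methods' t-test called 0 genes after Benjamini-Hochberg adjustment. Replicate numbers pair only the TAC groups, and replicate 1 minus 2 in Tg TAC correlated with that in WT TAC over genes (r = 0.548). With that number as a replicate block, TAC against sham called 93 genes, of which 24 were higher and 12 lower in the split and 57 overlapped there, and Tg TAC against WT TAC called 7. Both shams share 1 number, so the block takes the TAC effect from animals 444 to 454. *Timp1* was called there at 2.66 (adjusted p from limma 0.030), *Fhl1* at 1.25, *Col1a2* at 1.24 and *Adam9* at 0.94. The cause of these shifts was not tested.

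Dim genes such as *Ccdc184* and *Gpr158* lie near the detection limit, and their gaps were 0.33 each in the authors' table.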

Other observations

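Among the 2394 probes without a single gene symbol, 139 (5.81%) lay higher and 222 (9.27%) lower on the high arrays, and 1 and 3 of them by at least 1 log2 unit. ILMN_2601884 read 10.1, 9.82 and 10.3 on WT TAC replicate 1, Tg TAC replicate 1 and Tg TAC replicate 2, and 11.3, 11.6 and 11.6 on WT Sham, WT TAC replicate 2 and Tg Sham. ILMN_1250044 was detected on the high arrays alone, at 5.84, 6.43 and 7.31.

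The 4 measured neutrophil markers did not follow the split. Relative to each gene's mean over the 6 arrays, their median was 1.07, -0.52 and -0.05 on the high arrays in the same order and 0.71, -0.13 and -0.97 on the low arrays, so both arrays with the highest medians were WT. Their summed linear signal spanned 214 to 950 on the high arrays and 173 to 691 on the low arrays. Cell cycle genes had medians of 0.51, 0.52 and -0.61 on the high arrays and 0.40, -0.42 and -0.41 on the low arrays, with 0 of 16 separated.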
